A study of Mus musculus with 18 samples.

Results

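The 10 genes described here are the receptors Notch1, Notch2 and Notch3, the ligands Jag1 and Dll1, and the targets Hes1, Hey1, Hey2, Heyl and Nrarp of the Notch pathway, chosen by symbol from 55335 gene identifiers. All 10 were found in the count tables. They were measured by RNA-seq of polyadenylated RNA in O9-1 cells, a wildtype mouse neural crest (NC) cell line first isolated from early embryos, cultured toward osteoblasts. The 18 libraries comprised 3 groups on 2 days of differentiation (d2.5 and d5), with 3 libraries each: cells given scramble siRNA without FGF2 (Ctrl+vehicle), cells given scramble siRNA with FGF2 (Ctrl+FGF2), and cells given siRNA pools against Yap and Taz with FGF2 (Y/T dKD+FGF2). Every library therefore came from 1 cell line under siRNA transfection, knockdown without FGF2 was not sampled, and the day is also what the labels give as the batch, so day and batch cannot be told apart. Nothing in the labels says that the 3 replicates were separate cultures, and p-values measure the spread between these libraries. Counts come from bulk RNA, in which fewer cells of a type and less RNA per cell cannot be told apart.

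Notch receptors are transmembrane proteins that are cut when a Delta or Jagged ligand on a neighbouring cell binds them. The released intracellular fragment enters the nucleus, joins the DNA-binding protein RBPJ and a Mastermind coactivator, and switches on genes for the Hes and Hey basic helix-loop-helix repressors and for Nrarp, an inhibitor of the same complex. In skeletal precursors the pathway is known for holding back osteoblast maturation, and Hey1 is also known to be induced by bone morphogenetic proteins.

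Of the 10 genes, 7 had enough counts to be tested on both days: Notch1, Notch2, Notch3, Jag1, Dll1, Hes1 and Hey1. They are read below as CPM, counts relative to the library total, scaled by the trimmed mean of M-values (TMM) over all 18 libraries. Gene counts per library ranged from 10377151 to 14698525, with a median of 12330911. The siRNA targets were lower in the knockdown libraries than in the Ctrl+FGF2 libraries on both days. Yap1 fell from 129 ± 2.80 to 66.7 ± 2.45 CPM (SD, n = 3) at d2.5 and from 152 ± 5.96 to 70.5 ± 3.40 CPM at d5, and Wwtr1, which encodes Taz, fell from 222 ± 2.96 to 136 ± 5.97 CPM and from 215 ± 2.87 to 124 ± 3.24 CPM. Of 7 neural crest markers, Twist1, Snai2, Tfap2a, Sox9 and Msx1 were detected, while Sox10 and Foxd3, which define migrating crest, had 0 counts in every group. Of 6 endothelial markers, Cdh5 and Tie1 had 0 counts in every group and the summed level never passed 3.87 CPM. Summed glial markers reached at most 3.80 CPM, blood cell markers 5.50 CPM and epithelial markers 2.32 CPM.

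With FGF2 at d2.5 Hey1 fell 131-fold while Hes1 rose. Hey1, a repressor downstream of Notch, read 85.5, 123 and 112 CPM in the 3 Ctrl+vehicle libraries and 0.704, 0.946 and 0.802 CPM in the 3 Ctrl+FGF2 libraries. The groups lay far apart, and the summed counts were 4598 against 35. The log2 fold change was -7.03 (SE 0.17, adjusted p = 6.69e-26). Here and below, log2 fold changes and adjusted p are from edgeR's quasi-likelihood test with Benjamini-Hochberg adjustment over all genes tested, and a gene was called at an adjusted p under 0.05. Hes1, the repressor most widely used by Notch, moved the other way, from 3.73, 6.0 and 4.79 CPM to 14.9, 13.2 and 12.3 CPM. All 3 FGF2 libraries were above all 3 vehicle libraries, with a log2 fold change of 1.45 (SE 0.13, adjusted p = 1.5e-11).

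**Figure D1:**
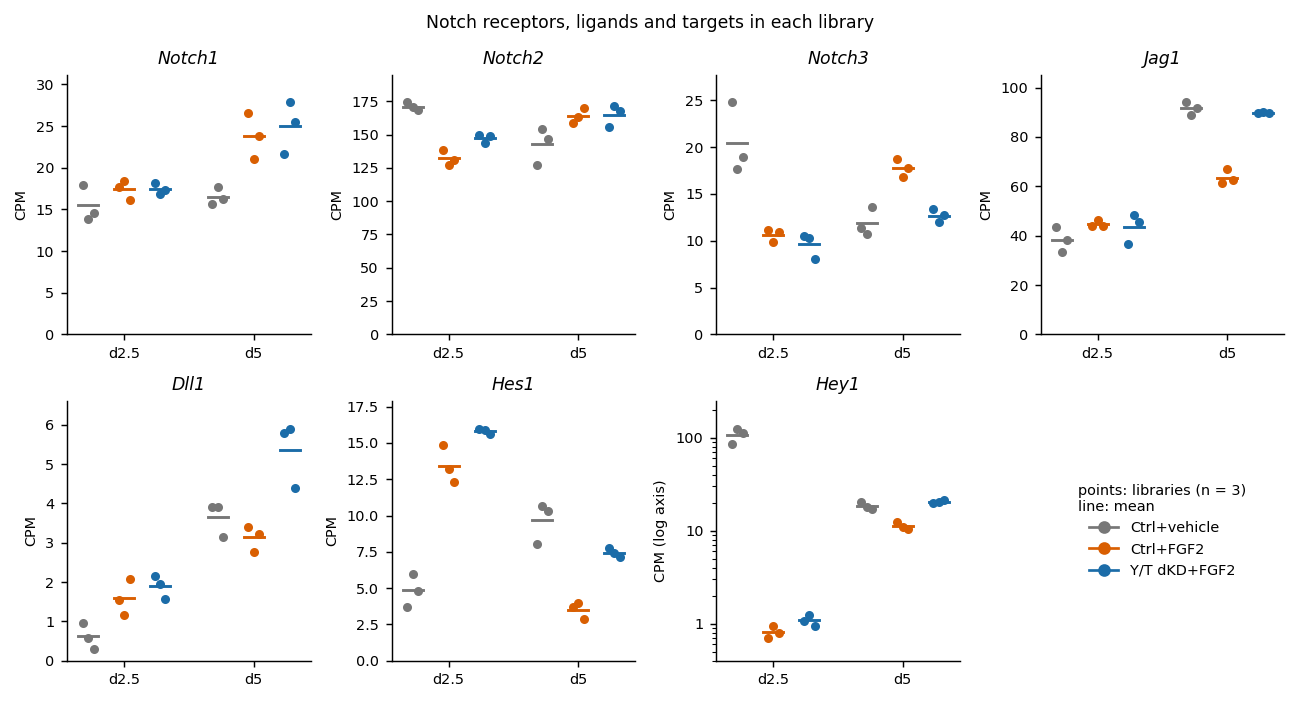
CPM of the 7 tested Notch genes in each library (points) with the group mean (line, n = 3), at d2.5 and d5, for the vehicle, FGF2 and knockdown groups. Axes start at 0 except for Hey1, which is on a log axis: its vehicle libraries at d2.5 lie above 85 CPM and all 6 FGF2-treated libraries of that day lie between 0.704 and 1.24 CPM.

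Of the 7 members tested, 3 were higher and 3 were lower with FGF2 at d2.5, on a background in which 33.5% of all 13677 genes tested were higher and 34.1% lower, so that a change as such was the common outcome at this time. The median log2 fold change was 0.16 over the 7 genes and 0.00 over all genes. Notch3, a receptor best known from vascular smooth muscle and pericytes, read 24.8, 17.7 and 18.9 CPM with vehicle and 11.2, 9.90 and 10.9 CPM with FGF2. Its groups did not overlap and it fell by 0.95 on the log2 scale (SE 0.11, adjusted p = 6.51e-09). Notch2 fell by 0.38 on the log2 scale (SE 0.04, adjusted p = 1.48e-10), from 174, 171 and 168 CPM to 138, 127 and 131 CPM. Notch1 did not pass the test (log2 fold change 0.16, adjusted p = 0.125), and its vehicle libraries of 13.9 to 17.9 CPM overlapped its FGF2 libraries of 16.2 to 18.4 CPM; without Ctrl+vehicle replicate 1 it was called at 0.28 (adjusted p = 0.00854).

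Both ligands read higher with FGF2 at d2.5. Dll1, a Delta-like ligand, was low in every library: 14, 9 and 4 counts with vehicle and 22, 16 and 31 counts with FGF2. The libraries did not overlap, and Dll1 rose by a log2 fold change of 1.33 (SE 0.34, adjusted p = 0.000876). Dll1 passed the filter on low counts only through FGF2-treated libraries, where it was higher, so the filter favoured a rise. The call was kept in all 8 fits with other settings, among them the fit without that filter (highest adjusted p = 0.00723). Jag1, a Jagged ligand, changed little, from 43.5, 33.4 and 38.1 CPM to 43.8, 46.5 and 43.8 CPM. Its log2 fold change of 0.21 (SE 0.08, adjusted p = 0.0182) was lost with upper-quartile factors (adjusted p = 0.0589), with DESeq2 (adjusted p = 0.0543), without Ctrl+vehicle replicate 2 (adjusted p = 0.154) and without Ctrl+FGF2 replicate 2 (adjusted p = 0.0705).

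Nrarp, Hey2 and Heyl stood at the edge of detection. Nrarp, the feedback inhibitor of the Notch nuclear complex, had 0, 1 and 0 counts in the Ctrl+vehicle libraries at d2.5 and 6, 4 and 9 counts in the Ctrl+FGF2 libraries, with 2, 4 and 5 counts after knockdown. The ratio of FGF2 to vehicle per gene count was 19.3, with a 95% exact Poisson interval from 3.07 to 803 that covers counting error only. Without the filter on low counts its adjusted p was 0.000241 for FGF2 against vehicle at d2.5 and 0.657 for knockdown against Ctrl+FGF2. At d5 Nrarp had a total of 1 count with vehicle, 2 counts with FGF2 and 1 count after knockdown. Hey2 had at most 3 counts in any group of 3 libraries and Heyl had 1 count in all 18 libraries. A total of 3 counts corresponds to between 0.0737 and 0.0850 CPM over the 3 libraries of a group, so these cells held no detectable Hey2 or Heyl signal above that level.

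Per kilobase of exon, the makeup of the Hes and Hey targets turned over with FGF2 at d2.5. Hey1 accounted for 93.2% ± 0.495 (SD, n = 3) of the summed CPM per kilobase (RPKM) of the 5 targets with vehicle and 3.6% ± 0.722 with FGF2. Hes1 accounted for 6.72% ± 0.460 and 93.9% ± 1.13. At d5 neither gene took over in this way: the share of Hey1 was 54.5% ± 5.88 with vehicle, 66.5% ± 3.68 with FGF2 and 63.3% ± 1.68 after knockdown. At d2.5 the summed level of the 5 targets itself fell from 35.2 ± 6.45 RPKM with vehicle to 7.03 ± 0.602 RPKM with FGF2. Among receptors Notch2 led in every group, with 79.7% to 85.0% of the summed RPKM as group means, and among ligands Jag1 held 92.4% to 97.9%.

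**Figure D2:**
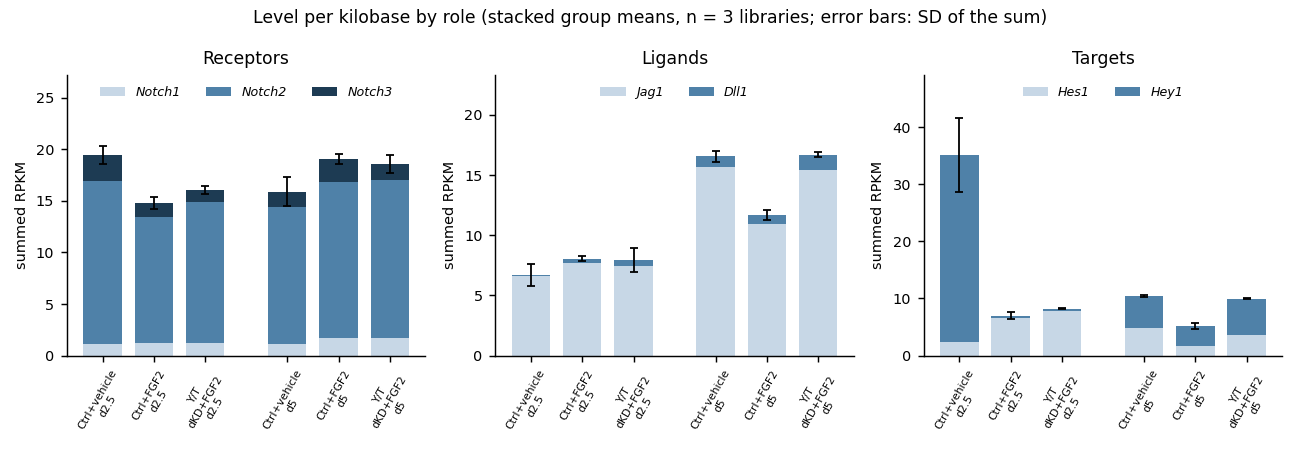
Stacked group means of RPKM (level per kilobase of merged exon, n = 3 libraries) for receptors, ligands and targets in the 6 groups; the error bar is the SD of the sum, and Hey2, Heyl and Nrarp are too low to be drawn. Notch2 and Jag1 make up most of their bars in every group, whereas the target bar is nearly all Hey1 with vehicle at d2.5 and nearly all Hes1 in both FGF2-treated groups of that day.

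Markers of bone cells and of contractile mesenchyme moved in the same comparison as Hey1 and Notch3. All 5 osteoblast markers tested were lower with FGF2 at d2.5 (median -2.53 on the log2 scale), and the sum of the 6 listed fell from between 13247 and 13407 CPM to between 2299 and 2426 CPM, most of it Col1a1, the main bone collagen. All 3 smooth muscle and pericyte markers tested were lower too, with a median of -2.30, and the sum of the 6 listed fell from between 379 and 478 CPM to between 145 and 150 CPM. Cnn1, Myh11 and Rgs5, among them the most specific for those cell types, were under 1 CPM in both groups. Neuronal markers fell in sum from between 65.3 and 71.1 CPM to between 20.1 and 23.2 CPM, with 2 of 3 tested lower. Neural crest markers fell in sum from between 322 and 340 CPM to between 227 and 232 CPM, with 2 of 5 tested lower. The part of these shifts in the values of Hey1 and Notch3 was not tested.

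The promoter windows of 7 of the 10 genes were found in RefSeq (GRCm38.p6), among them 2 for Dll1, and Hes1, Hey1 and Heyl were not among them. Each window runs from 250 bases before to 50 bases after the start site. They were read for the core letters of RBPJ (GTGGGAA), and of the TEAD factors through which Yap and Taz reach DNA (GGAATG), on both strands, with positions giving the first base of a match counted back from the start site. RBPJ letters were held by 6.38% of all 32851 windows and TEAD letters by 14.7%. The 2 windows of the Notch genes that held either are shown upstream of the start site, to let the letters be seen in place, with matches in capitals: Hey2 at chr10:30842784-30843033 and Notch1 at chr2:26503823-26504072, both on the minus strand.
Hey2: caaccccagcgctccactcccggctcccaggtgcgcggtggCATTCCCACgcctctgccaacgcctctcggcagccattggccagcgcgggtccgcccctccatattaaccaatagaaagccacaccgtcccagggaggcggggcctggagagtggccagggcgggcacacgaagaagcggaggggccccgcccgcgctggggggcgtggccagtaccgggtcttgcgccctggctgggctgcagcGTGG
Notch1: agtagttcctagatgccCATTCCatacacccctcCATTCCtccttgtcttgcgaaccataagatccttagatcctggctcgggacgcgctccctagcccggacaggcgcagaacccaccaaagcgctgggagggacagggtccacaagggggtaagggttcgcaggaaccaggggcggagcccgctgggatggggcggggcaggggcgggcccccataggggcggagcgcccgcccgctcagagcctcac
The Hey2 window had RBPJ letters on its minus strand at -207, overlapped by TEAD letters at -209, and RBPJ letters on its plus strand at -4, whose last 3 bases lie past the start site and are not printed. The Notch1 window had TEAD letters on its minus strand at -233 and at -216. Hey2 stayed at or under 3 counts in every group, and Notch1 was not called for knockdown at either day. The letters are a description of these windows and not of binding.

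At d5 the same comparison of FGF2 with vehicle gave another set of directions. All 3 receptors were higher, Jag1, Hes1 and Hey1 were lower, and Dll1 was not called, on a background of 23.5% of 13304 genes higher and 23.7% lower. Hes1 read 8.04, 10.7 and 10.3 CPM with vehicle and 3.68, 3.99 and 2.87 CPM with FGF2. Those groups were well separated, and Hes1 fell by 1.45 on the log2 scale (SE 0.16, adjusted p = 6.77e-07). Hey1 fell by 0.71 (SE 0.10, adjusted p = 1.61e-05), from 20.6, 17.9 and 17.2 CPM to 12.5, 11 and 10.3 CPM.

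Jag1 read 94.0, 88.8 and 91.7 CPM with vehicle at d5 and 61.4, 66.9 and 62.4 CPM with FGF2. It fell by 0.51 on the log2 scale (SE 0.05, adjusted p = 1.05e-07), with no overlap. Dll1 was 3.92, 3.92 and 3.14 CPM with vehicle and 3.40, 2.77 and 3.23 CPM with FGF2, which overlapped (log2 fold change -0.21, 95% interval from -0.62 to 0.19, adjusted p = 0.377).

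The receptors all went up with FGF2 at d5. Notch3 rose from 11.4, 10.7 and 13.6 CPM to 18.7, 16.9 and 17.8 CPM, a log2 fold change of 0.59 (SE 0.10, adjusted p = 0.000138). Notch1 rose from 15.7, 17.7 and 16.2 CPM to 26.6, 21 and 23.8 CPM, a log2 fold change of 0.53 (SE 0.10, adjusted p = 0.000436). Notch2 rose by 0.21 (SE 0.06, adjusted p = 0.00568), from 127, 154 and 147 CPM to 159, 163 and 170 CPM. For all 3 receptors every FGF2 library was above every vehicle library. How many of all genes separated in this way was not counted. In the osteoblast list 4 of 6 markers were lower at d5 and 2 higher, and in the smooth muscle and pericyte list 1 of 4 tested was higher, Acta2. The part of these in the receptor values was not tested.

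**Figure D3:**
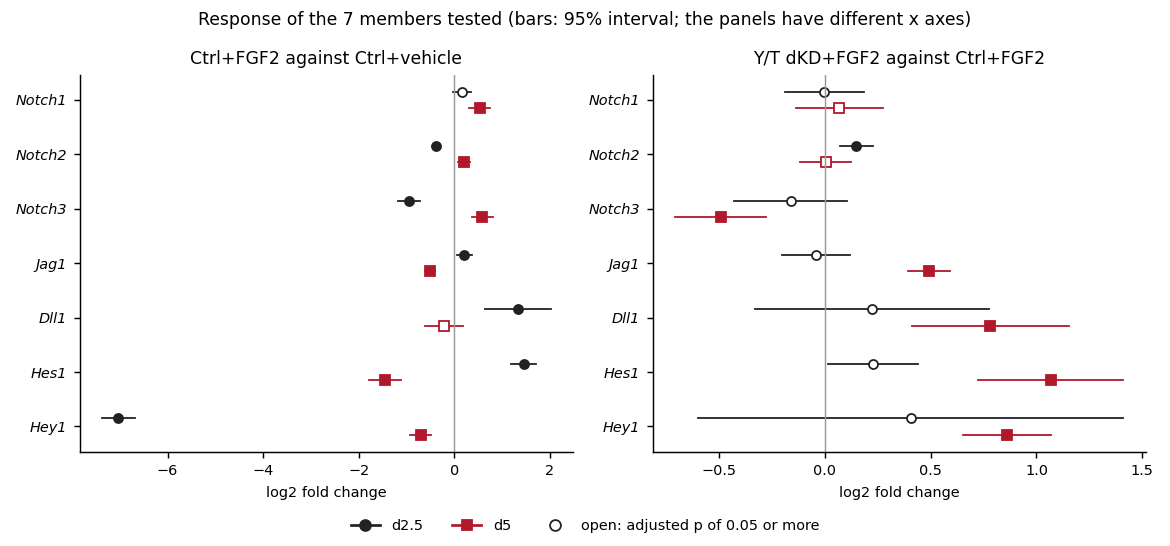
Log2 fold change of the 7 tested Notch genes for Ctrl+FGF2 against Ctrl+vehicle (left) and Y/T dKD+FGF2 against Ctrl+FGF2 (right), at d2.5 (circles) and d5 (squares), with 95% intervals; open symbols did not pass an adjusted p of 0.05 and the panels have different x axes. With FGF2, Notch2, Notch3, Jag1 and Hes1 are filled on opposite sides of 0 on the 2 days, and with knockdown 1 gene is filled at d2.5 and 5 are filled at d5.

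The FGF2 effect differed between the days for all 7 genes in the test of the difference itself, where 60.9% of 14198 genes differed. Hey1 had the largest difference of the 7, 6.30 on the log2 scale (adjusted p = 2.65e-18), since it was lower on both days but by far more at d2.5. Hes1 differed by -2.93 (adjusted p = 3.83e-13) with a change of sign. Notch1 had the smallest, 0.35 (adjusted p = 0.0417), which was lost with RLE size factors, the median ratios of DESeq2, in edgeR (adjusted p = 0.0607), with DESeq2 (adjusted p = 0.122) and in 7 of 18 fits that left out 1 library, the highest adjusted p being 0.195 without Ctrl+vehicle d2.5 replicate 1.

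Knockdown of Yap and Taz under FGF2 changed 1 of the 7 tested Notch genes at d2.5. This comparison shares its Ctrl+FGF2 libraries with the comparison of FGF2 and vehicle. Notch2 alone was called: it rose by 0.15 (SE 0.04, adjusted p = 0.00454), from 138, 127 and 131 CPM to 150, 144 and 149 CPM. In all, 10.8% of genes were higher and 13.6% lower. Hey1 stayed at 1.08, 1.24 and 0.948 CPM after knockdown, with a wide 95% interval of its log2 fold change from -0.60 to 1.41 (adjusted p = 0.597), so that a change of that size was not detectable at this depth. Hes1 was 16.0, 15.9 and 15.6 CPM, above all 3 Ctrl+FGF2 libraries, but its log2 fold change of 0.23 did not pass the test (adjusted p = 0.11). The values for Notch1, Notch3, Jag1 and Dll1 lay between -0.16 and 0.22, none of them called. Of 5 osteoblast markers tested 2 were higher, 1 lower and 2 not called (median 0.09 on the log2 scale). Of 3 smooth muscle and pericyte markers tested Acta2 (-0.68, adjusted p = 0.000253) and Tagln (-0.72, adjusted p = 0.0245) were lower and Pdgfrb was not called. The part of these in the values of the Notch genes was not tested.

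At d5 the knockdown moved 5 of the 7 genes, against a background of 15.6% of genes higher and 16.1% lower. Hes1 rose from 3.68, 3.99 and 2.87 CPM to 7.74, 7.39 and 7.13 CPM (log2 fold change 1.07, SE 0.16, adjusted p = 6.35e-05). Hey1 rose from 12.5, 11 and 10.3 CPM to 19.9, 20.6 and 21.2 CPM (log2 fold change 0.86, SE 0.10, adjusted p = 2.53e-06). Jag1 rose to 89.6, 90.1 and 89.8 CPM (log2 fold change 0.49, SE 0.05, adjusted p = 3.06e-07). For each of these every knockdown library was above every Ctrl+FGF2 library, and the share of all genes that separated so was not counted.

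Dll1 rose as well, to 5.78, 5.90 and 4.38 CPM from 3.40, 2.77 and 3.23 CPM (log2 fold change 0.78, SE 0.18, adjusted p = 0.00223). Notch3 was the member that fell, to 13.4, 12 and 12.7 CPM from 18.7, 16.9 and 17.8 CPM, by 0.49 on the log2 scale (SE 0.10, adjusted p = 0.00113). Notch1 and Notch2 did not pass the test, with log2 fold changes of 0.07 (95% interval from -0.14 to 0.27) and 0.00 (95% interval from -0.12 to 0.12). All 6 osteoblast markers were higher after knockdown at d5 (median 0.72 on the log2 scale), and of 4 smooth muscle and pericyte markers tested Acta2 fell by 0.41 (adjusted p = 1.68e-06), Cnn1 rose by 0.95 (adjusted p = 0.0427) and Tagln and Pdgfrb were not called. Their part in the values of the Notch genes was not tested.

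The knockdown effect differed between the days for Jag1, by 0.53 on the log2 scale (adjusted p = 0.000354), and for Hes1, by 0.84 (adjusted p = 0.00314), where 20.9% of all genes differed. For Hey1 the difference was 0.45 with an SE of 0.49 (adjusted p = 0.576), for Dll1 0.56 (adjusted p = 0.247) and for Notch3 -0.33 (adjusted p = 0.2), so that a call at d5 and none at d2.5 is not shown to be a difference for these genes.

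Set against vehicle, the knockdown cells with FGF2 had 2 Notch genes higher and 3 lower at d2.5. Hes1 (log2 fold change 1.68) and Dll1 (1.55) were higher and Hey1 (-6.63), Notch3 (-1.11) and Notch2 (-0.23) were lower, on a background of 34.1% higher and 35.7% lower. As above, Dll1 passed the filter only through FGF2-treated libraries. Jag1 did not pass the test at 0.17 (adjusted p = 0.0616), but was called without the filter on low counts (adjusted p = 0.00932), with all 18 libraries in 1 fit (adjusted p = 0.0351), without Ctrl+vehicle replicate 1 (adjusted p = 0.00106) and without Y/T dKD+FGF2 replicate 1 (adjusted p = 0.00182). Notch1, not called at 0.16 (adjusted p = 0.137), was called at 0.28 without Ctrl+vehicle replicate 1 (adjusted p = 0.0103). Of the siRNA targets, Yap1 was lower than with vehicle at d2.5 (-1.18, adjusted p = 1.58e-21). Wwtr1 was not called against vehicle at d2.5 (-0.06, adjusted p = 0.122). In Ctrl+FGF2 against Ctrl+vehicle at d2.5, Wwtr1 was higher (0.65, adjusted p = 1.3e-16) and Yap1 lower (-0.23, adjusted p = 3.35e-06). At d5 both were lower in the knockdown cells than with vehicle, Yap1 at -1.05 (adjusted p = 4.6e-11) and Wwtr1 at -0.89 (adjusted p = 6.63e-12).

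At d5 the knockdown cells with FGF2 read near vehicle for several of these genes. Jag1 was 89.8 ± 0.247 CPM (SD, n = 3) against 91.5 ± 2.59 CPM with vehicle, a log2 difference of -0.02 with a 95% interval from -0.11 to 0.08. Hey1 was 20.6 ± 0.642 against 18.6 ± 1.78 CPM (0.16, interval from -0.04 to 0.35), and Notch3 was 12.7 ± 0.696 against 11.9 ± 1.53 CPM (0.10, interval from -0.13 to 0.33). None of the 3 was called (adjusted p = 0.769, 0.187 and 0.515), on a background of 20.7% of genes higher and 21.1% lower.

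The other 4 differed from vehicle at d5. Notch1 was higher than with vehicle by 0.60 on the log2 scale (adjusted p = 0.000163) and Notch2 by 0.21 (adjusted p = 0.00599). Hes1 was lower by a log2 fold change of -0.38 (adjusted p = 0.0312) and Dll1 was higher by 0.57 (adjusted p = 0.0126). Both of the last calls were lost with DESeq2 (adjusted p = 0.133 for Hes1 and 0.0986 for Dll1). Leaving out 1 library kept the call for Hes1 in 4 of 9 fits, with an adjusted p of up to 0.112 without Ctrl+vehicle replicate 2, and for Dll1 in 6 of 9 fits, with an adjusted p of up to 0.0686 without Ctrl+vehicle replicate 3.

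From d2.5 to d5 without FGF2 both ligands and Hes1 rose, and Hey1, Notch2 and Notch3 fell. Jag1 went from 38.3 ± 5.03 to 91.5 ± 2.59 CPM (log2 fold change 1.26, adjusted p = 1.65e-15) and Dll1 from 0.619 ± 0.330 to 3.66 ± 0.448 CPM (2.52, adjusted p = 4.47e-09). Hey1 fell by 2.53 on the log2 scale (adjusted p = 1.02e-19), from 107 ± 19.3 to 18.6 ± 1.78 CPM, while Hes1 rose by 1.00 (adjusted p = 4.86e-07). Notch3 fell by 0.78 (adjusted p = 7.61e-07) and Notch2 by 0.26 (adjusted p = 5.59e-05), and Notch1 was not called (0.10, adjusted p = 0.431). In Ctrl+vehicle 33.1% of genes were higher and 33.2% lower at d5.

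In both FGF2-treated groups the day changes of Hey1, Hes1, Notch2 and Notch3 had the opposite sign to those with vehicle. Hey1 rose by 3.77 on the log2 scale in Ctrl+FGF2 (adjusted p = 6.33e-14) and by 4.22 after knockdown (adjusted p = 9.62e-17). Hes1 fell by 1.93 (adjusted p = 5.58e-13) and by 1.09 (adjusted p = 3.86e-09). The other 5 tested genes were each higher at d5 in both groups, Jag1 by 0.51 and 1.04, Dll1 by 0.95 and 1.51, Notch1 by 0.45 and 0.51, Notch3 by 0.73 and 0.40 and Notch2 by 0.31 and 0.16. Of all genes, 41.2% were higher and 38.8% lower in Ctrl+FGF2, and 40.3% and 38.1% after knockdown. Of 5 smooth muscle and pericyte markers tested 4 were higher at d5 in each of the 3 groups, with medians of 1.41 with vehicle, 4.53 with FGF2 and 5.89 after knockdown on the log2 scale. Of 6 osteoblast markers 3 were higher and 3 lower with vehicle (median 0.12), 5 higher with FGF2 (1.44) and 6 higher after knockdown (2.25). Their part in the day changes of the Notch genes was not tested. For knockdown, Notch2 lost its call without Y/T dKD+FGF2 d2.5 replicate 2 (adjusted p = 0.0538) and Notch3 without Y/T dKD+FGF2 d2.5 replicate 3 (adjusted p = 0.0707).

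Ordered by level, Hey1 was highest with vehicle at d2.5, followed by Y/T dKD+FGF2 and Ctrl+vehicle at d5, whose libraries of 19.9 to 21.2 and 17.2 to 20.6 CPM overlapped, then Ctrl+FGF2 at d5, and last the 2 FGF2-treated groups at d2.5. Hes1 had a different order. It was highest in Y/T dKD+FGF2 and then Ctrl+FGF2 at d2.5, followed by Ctrl+vehicle and Y/T dKD+FGF2 at d5, then Ctrl+vehicle at d2.5 and last Ctrl+FGF2 at d5, whose libraries of 2.87 to 3.99 CPM overlapped those of 3.73 to 6.0 CPM in the group before it.

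The wider pathway was read from a list of 57 other genes, of which 46 were tested at d2.5 and 45 at d5. With FGF2 at d2.5 12 were higher and 23 lower, and the median on the log2 scale was -0.12 against 0.00 over all genes, of which 33.5% were higher and 34.1% lower. The leading change was in Rbpj, the DNA-binding partner of the Notch fragment, which rose 4.25-fold. It read 116, 109 and 110 CPM with vehicle and 479, 480 and 474 CPM with FGF2 (log2 fold change 2.09, SE 0.03, adjusted p = 5.42e-30), and 422, 422 and 432 CPM after knockdown (log2 fold change -0.18 against Ctrl+FGF2, adjusted p = 9.36e-05). At d5 Rbpj lay between 93.1 and 113 CPM in all 9 libraries. The processed pseudogene Rbpj-ps3 followed it, at 12.2 ± 0.982 CPM with vehicle and 56.8 ± 1.61 CPM with FGF2 at d2.5, and how reads were assigned between the copies was not tested, which leaves the level of Rbpj uncertain.

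Beside Rbpj, FGF2 at d2.5 raised Dtx4, a Deltex ubiquitin ligase (log2 fold change 1.5, adjusted p = 9.75e-11), Jag2, a further Jagged ligand (1.38, adjusted p = 4.59e-08), and Neurl1b, a ubiquitin ligase for ligands (0.99, adjusted p = 0.000218). It lowered Neurl1a, of the same ligase family (-1.38, adjusted p = 2.96e-11), Numbl, a relative of the Notch antagonist Numb (-1.08, adjusted p = 1.73e-14), Aph1b, a gamma-secretase subunit (-0.97, adjusted p = 1.32e-12), and Lfng, a glycosyltransferase that tunes ligand choice (-0.88, adjusted p = 2.29e-09). Per kilobase Jag2 stayed far below Jag1, at 0.303 ± 0.0874 and 0.802 ± 0.0283 RPKM (SD, n = 3) with vehicle and with FGF2 against 6.58 ± 0.864 and 7.67 ± 0.268 RPKM. Jag2 was too low to test at d5.

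Among the 10 proteases and protease subunits that cut Notch receptors, calls with FGF2 were lower at d2.5 and higher at d5. In the test of the difference between the days 8 differed, all toward higher values at d5. Of all 14198 genes tested, 4509 differed in that direction and 60.9% in either direction. With FGF2 at d2.5 7 were lower, 0 higher and 3 not called, and the median was -0.41. Adam10, which makes the ligand-dependent cut outside the cell, fell by 0.64 on the log2 scale (adjusted p = 3.06e-15), and Ncstn of the gamma-secretase complex fell by 0.38. At d5 6 of the 10 were higher with FGF2, 0 lower and 4 not called, with a median of 0.24, led among named genes by Furin, which cleaves the receptor precursor (0.73, adjusted p = 3.1e-09). Knockdown at d5 lowered 5 of the 10 and raised 0, Psen2 (-0.51, adjusted p = 2.73e-05), Adam17 (-0.43, adjusted p = 3.79e-07) and Furin (-0.37, adjusted p = 1.72e-05) among them. In knockdown cells with FGF2 against vehicle, all 10 were lower at d2.5, and at d5 2 were higher and 2 lower. For FGF2 at d2.5, FGF2 at d5 and knockdown at d5 the backgrounds were 34.1%, 23.5% and 16.1% of all genes in the same direction. For knockdown cells with FGF2 against vehicle, 35.7% of all genes were lower at d2.5. At d5 20.7% were higher and 21.1% lower in that comparison.

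**Figure D4:**
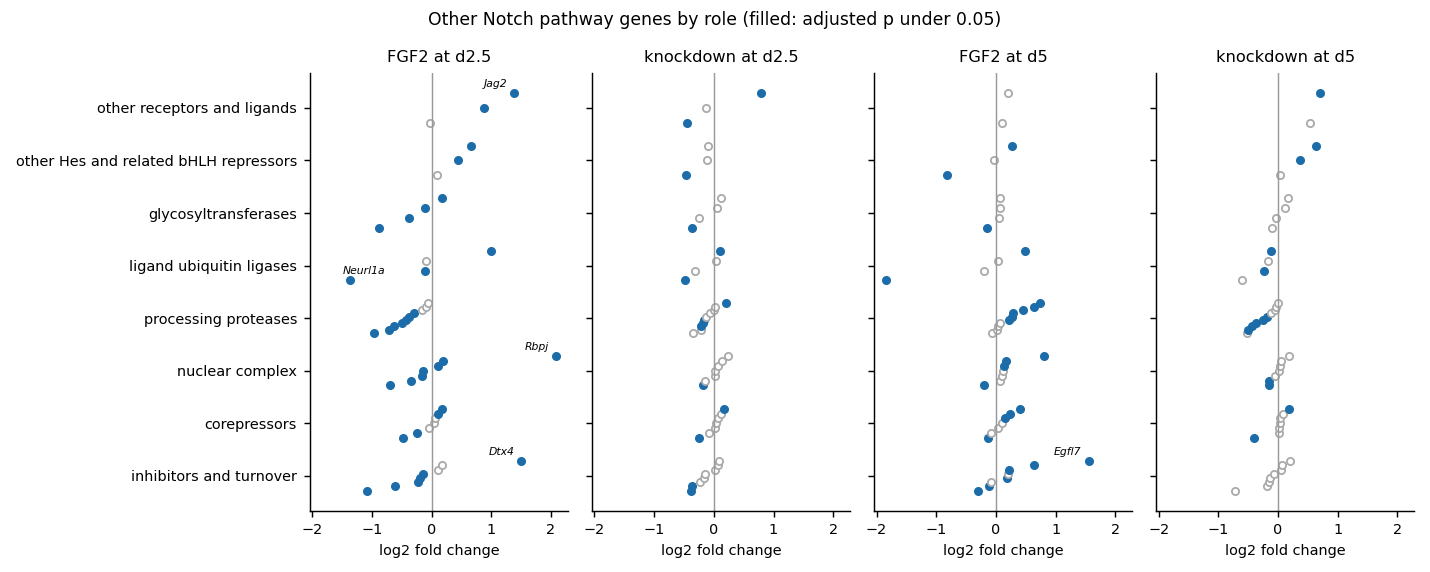
Log2 fold change of each tested gene among the 57 other Notch pathway genes, by role, for FGF2 and for knockdown at d2.5 and d5; filled points passed an adjusted p of 0.05. Rbpj at d2.5 is the point farthest right, at 2.09, and the proteases lie mostly left of 0 with FGF2 at d2.5 and right of 0 with FGF2 at d5.

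Knockdown at d2.5 changed 15 of the 46 other pathway genes, 4 higher and 11 lower, with a median of -0.09, beside 10.8% of all genes higher and 13.6% lower. Dlk1, a non-canonical ligand (0.79, adjusted p = 0.00197), Adam10 (0.20, adjusted p = 0.000325), Kdm5a, a histone demethylase (0.17, adjusted p = 0.00355) and Mib1, a ubiquitin ligase for ligands (0.11, adjusted p = 0.0195) were higher. Mib2, a ligase for ligands (-0.49, adjusted p = 3.89e-05), Hes6, a Hes family member (-0.47, adjusted p = 0.00552), Jag2 (-0.46, adjusted p = 0.0341) and Dtx4 (-0.38, adjusted p = 0.0263) were lower. The calls of Jag2 and Dtx4 were lost with DESeq2 (adjusted p = 0.162 and 0.13), with all 18 libraries in 1 fit (adjusted p = 0.094 and 0.13) and without several single libraries. The call of Mib1 was lost without Ctrl+FGF2 replicate 2 (adjusted p = 0.11) or Y/T dKD+FGF2 replicate 3 (adjusted p = 0.177), and that of Kdm5a without the latter (adjusted p = 0.0514).

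With FGF2 at d5 18 of 45 other pathway genes were higher and 7 lower, with a median of 0.10, beside 23.5% of all genes higher and 23.7% lower. Egfl7, a secreted factor (1.55, adjusted p = 0.000568), Maml3, a Mastermind coactivator (0.80, adjusted p = 2.51e-06), and Dtx2, a Deltex ligase (0.64, adjusted p = 6.5e-06), joined Furin among the highest. Neurl1b, near the edge of the filter with a mean log2 CPM of -0.03 and named after its values were seen, fell most (-1.85, adjusted p = 0.00103), whereas it had risen at d2.5. At d5 it had 16, 16 and 25 counts with vehicle and 9, 5 and 2 counts with FGF2. It passed the filter only through the vehicle libraries, where it was higher, so the filter favoured a fall. Its call at d5 is therefore given as a description and not as support. Above a mean log2 CPM of 0, Bhlhe40, a repressor related to the Hes family, fell most (-0.82, adjusted p = 4.13e-10), followed by Fbxw7, which marks the Notch fragment for destruction (-0.30, adjusted p = 0.00946), Kat2b, a histone acetyltransferase (-0.20, adjusted p = 0.0177) and Pofut1, which adds fucose to Notch receptors (-0.15, adjusted p = 0.0251). The calls of Kat2b and Pofut1 were lost without single libraries, at adjusted p of up to 0.099 without Ctrl+FGF2 replicate 1 and 0.107 without Ctrl+vehicle replicate 3.

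Knockdown at d5 left 31 of 45 other pathway genes without a call, with 4 higher and 10 lower and a median of -0.04, beside 15.6% of all genes higher and 16.1% lower. Dlk2, a relative of Dlk1 (0.70, adjusted p = 6.28e-05), Bhlhe40 (0.63, adjusted p = 2.17e-08), Bhlhe41 (0.36, adjusted p = 0.00181) and Ctbp1, a corepressor (0.18, adjusted p = 0.00434), were higher, and Cir1, a further corepressor (-0.41, adjusted p = 0.000103), fell with the proteases. DESeq2 called 9 genes here in place of 14. In knockdown cells with FGF2 against vehicle 13 other pathway genes were higher and 23 lower at d2.5, beside 34.1% and 35.7% of all genes, and 13 were higher and 9 lower at d5, beside 20.7% and 21.1%. Notch4, Dll3, Dll4, Dner, Hes2, Hes3, Hes5, Hes7, Helt, Mfng and Dtx1 were too low to test on either day.

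The genes most like each member in level over the 18 libraries, by Pearson r of log2 CPM among 11731 genes, differed from member to member. The points fall into 6 groups of 3 libraries and share group, day and depth, so the values describe these libraries and carry no p. Hey1 was nearest to Spata13 (r = 0.98), Snx18 (0.98) and Als2cl (0.98). Within d5 Als2cl had the opposite sign (r = -0.52) and Spata13 fell to 0.66. Hes1 was nearest to Ivns1abp (0.97), Rnf157 (0.96) and Fgfr1op2 (0.96), each of which kept r of at least 0.91 within each day. Jag1 was nearest to Col24a1 (0.97), Grem1 (0.97) and Pld1 (0.97), which fell to between 0.50 and 0.63 within d2.5. Dll1 was nearest to Sema7a (0.96), Fgfr1 (0.96) and Shc4 (0.95), of which Sema7a fell to 0.82 and Shc4 to 0.76 within d5. Among the receptors, Notch3 was nearest to Cul7 (0.95), Nfix (0.94) and 1110051M20Rik (0.93), Notch2 to Cdk19 (0.93), Zkscan1 (0.89) and Tnks (0.88), and Notch1 to Pthlh (0.91), A4galt (0.91) and Arf3 (0.91). Zkscan1 fell to 0.75 with Notch2 within d5, and Pthlh to 0.69 and Arf3 to 0.61 with Notch1 within d2.5.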

How the data were processed

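The authors prepared polyadenylated RNA libraries with a SMARTER kit and deposited raw counts per gene for each library; the submitters' processing notes name mm10, FastQC, STAR, Picard and featureCounts, without versions or roles. Each deposited file held unstranded counts and counts for either strand. The column that held between 96.0% and 96.6% of the counts assigned to either strand was used. In it between 27.0% and 34.4% of reads were assigned to no gene and stayed out of library sizes. Of 55335 identifiers, 55154 were matched to symbols in GENCODE M21 (54587 with the same version). The study states no test of differential expression for these libraries. edgeR 4.0.16 was therefore run in R 4.3.3 on the counts as deposited, with filterByExpr, TMM factors and the quasi-likelihood test, on the 9 libraries of each day, and on all 18 for differences between days, with Benjamini-Hochberg adjustment over all genes tested and a threshold of 0.05. The SE was obtained by dividing the size of the log2 fold change by the root of its F statistic. Poisson intervals and the floor of 3 counts cover counting error only. RPKM used merged exon length. DESeq2 1.42.0 and other settings were alternatives. The edgeR step was tested on simulated data. Replicates differed by more than sampling noise, and no library was a copy of another.

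The members, the list of 57 other pathway genes and the marker lists were chosen with earlier results of these data known. All 10 members are named. Of the other pathway genes, the 4 that rose most and the 4 that fell most are named for FGF2 and for knockdown on each day, out of those called whose log2 CPM averaged 0 or more, and for each tested member the 3 genes most like it among those averaging 1 or more. The siRNA targets and the 1 or 2 highest genes of a marker list are also named. The other values of Rbpj and of the proteases, the markers at 0 or under 1 CPM and the genes too low to test fall outside this rule and were chosen after their values were seen. The value of 1 gene of the wider pathway is not reported here.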

Additional observations from a re-analysis of the deposited data

Results flagged for a closer look

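A difference of the FGF2 effect between d5 and d2.5 passed the test for each of the 7 members tested, beside 60.9% of all 14198 genes. On the log2 scale it was 0.35 for Notch1, 0.57 for Notch2, 1.51 for Notch3, -0.75 for Jag1, -1.57 for Dll1, -2.93 for Hes1 and 6.30 for Hey1. The knockdown effect differed between the days for Jag1, by 0.53, and for Hes1, by 0.84, beside 20.9% of all genes. Each effect was measured within a day, but day and batch cannot be told apart in the labels. A difference of an effect between the days can therefore not be told apart from a difference between the batches. The difference for Notch1 did not hold in 7 of 18 fits that left out 1 library, whereas the other 8 differences held in all 18.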

How the results depend on the processing

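With 3 libraries a group, small changes of low genes such as Dll1, Nrarp and Hey1 under FGF2 at d2.5 were limited by counts. Over the settings tried, Hey1, Hes1, Dll1, Notch2 and Notch3 kept direction and call for FGF2 at d2.5, and all 7 kept them for FGF2 and for knockdown at d5, except that the values of Notch1 and Notch2 for knockdown at d5, which were not called, changed sign. Notch2 for knockdown at d5 was -0.0050 with upper-quartile factors. Notch1 for knockdown at d2.5, not called, turned to 0.0070 with RLE size factors, 0.004866 with upper-quartile factors, 0.0039 with DESeq2 and 0.0065 with all 18 libraries in 1 fit. Leaving out 1 library gave Notch1 -0.057 to 0.038 and Jag1 -0.13 to 0.064 for knockdown at d2.5, Notch1 -0.027 to 0.16 and Notch2 -0.030 to 0.038 for knockdown at d5, Jag1 -0.050 to 0.0016 for knockdown with FGF2 against vehicle at d5, and Notch1 -0.025 to 0.17 for the difference of the knockdown effect between days. The r of Als2cl with Hey1 was -0.52 within d5. Members called for knockdown with FGF2 against vehicle at d5 numbered 4, 2 with DESeq2 and 2 to 4 without 1 library. Other pathway genes called for knockdown at d5 numbered 14, and 9 with DESeq2. The cause of these shifts was not tested. The replicate numbers gave little sign of pairing: deviations of same-numbered libraries correlated between -0.08 and 0.04 at d2.5 and between -0.06 and 0.16 at d5. Of 9 pairs a day, 0 and 2 were over 0.1. Both of the latter were Ctrl+vehicle with Ctrl+FGF2 at d5 (0.145 for replicate 1 and 0.157 for replicate 2, beside 0.027 for replicate 3), so weak pairing in that comparison is not excluded. With the replicate block, 6 members were called for FGF2 at d2.5 and 5 for knockdown at d5, as without it, and no call of a member changed in any comparison.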
